A study of Mus musculus with 8 samples.

Results

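Collagen chains, laminin chains, basement membrane linkers and collagen-modifying enzymes were taken from a comparison of Spp1 knockout with wild-type astrocyte cultures. The genes were chosen by name alone: every collagen, laminin and nidogen chain, perlecan, agrin, nephronectin, the prolyl and lysyl hydroxylases of collagen, its galactosyltransferases, the procollagen proteinase enhancers, Crtap and Colec12. Of 3624 genes in the authors' deposited table, 35 bore such a name. Since that table lists only genes past an adjusted p and a fold-change limit, every one of the 35 had changed by the authors' own test, and neither the presence of a gene nor the smallness of its adjusted p is a finding here. The naming rule used neither the direction nor the size of a change, but it was set with earlier results of these data known. The fold-change limit bounds the size of every change from below.

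RNA had been sequenced from primary cultures of astrocytes, the star-shaped support cells of nervous tissue, taken from retina and optic nerve of mice at postnatal day 1 to 3. The first group was Spp1-/- mice of strain B6.129S6(Cg)-Spp1tm1Blh/J (4 samples) and the second was wild-type C57BL/6 mice (4 samples), both grown in DMEM/F12 with 10% fetal bovine serum. Spp1 encodes osteopontin, a secreted matrix phosphoprotein and cytokine, and the knockout allele is carried by every cell of the animal. Nothing in the labels ties each sample to a culture or animal of its own, so the authors' p-values cover no more than the spread among these 8 samples, and that spread may be purely technical.

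Collagens are trimers of chains wound in a triple helix. Fibrillar collagens form the banded fibres of connective tissue, FACIT collagens coat those fibres, and network collagens and laminins form sheets. Basement membranes join a laminin sheet to a collagen IV sheet through nidogen and perlecan. In the eye and optic nerve, such membranes line the inner retina and the vessels and bound the astrocyte endfeet. Each new collagen chain is hydroxylated and glycosylated in the endoplasmic reticulum before it is secreted, trimmed and crosslinked.

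The table holds 0 columns of values per sample, and the depth of the libraries is unknown. Levels are therefore given as implied means, the mean normalized count of each genotype worked out from the deposited mean over all samples and the deposited fold change. Intervals are 95% intervals from the deposited standard error. Fold changes are on the log2 scale, knockout over wild type, a direction read from Spp1, which had an implied mean of 441 in knockout and 26271 in wild-type cultures and a log2 fold change of -5.90 in the authors' deposited table. Kdm5d, a Y-linked gene, had a log2 fold change of 5.91 there, with implied means of 905 in knockout and 15.0 in wild-type cultures. The Y-linked genes Ddx3y, Eif2s3y and Uty were higher too, Ddx3y with implied means of 1605 in knockout and 0.164 in wild-type cultures. Xist was not in the table and was not read as unchanged. The labels give no sex, so sex, strain and Spp1 genotype cannot be told apart as sources of any difference below.

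Most of these matrix genes were lower in the knockout. Of the 35 genes, 8 were higher and 27 lower, which is 77.1% lower, whereas 45.1% of all genes in the authors' deposited table were lower and 54.9% higher. Their median log2 fold change was -0.86, against 0.66 over all listed genes. Of the 20 members whose mean normalized count reached 1000, 3 were higher and 17 lower (85.0% lower). Among the other listed genes at that abundance, 46.7% of 892 were lower. Among the 603 other listed genes with an exonic length of at least 7833 bases, the median of the members, 35.8% were lower. The members' 77.1% is not matched to that share, since it counts members shorter than the limit. Of the 8 higher members only Col8a2 and Col14a1 were shorter, whereas most of the lower ones were. No test was made of these shares, since genes may move together and the lack of values per sample leaves that unmeasured.

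**Figure D1:**
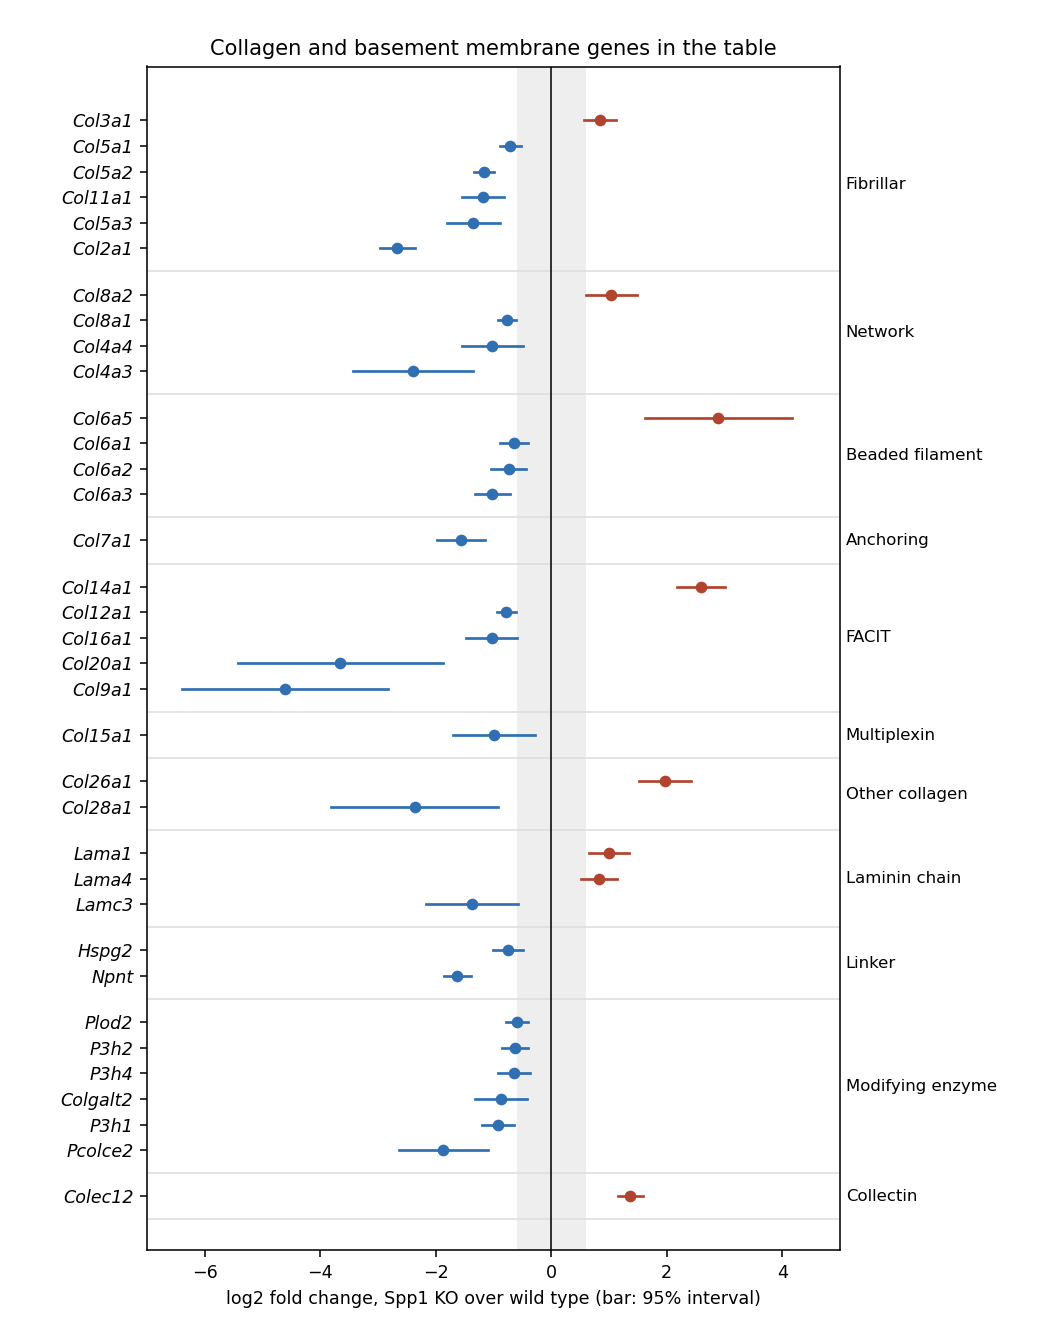
Log2 fold change of knockout over wild type (x axis) for each of the 35 genes (rows, grouped by role), with points for the deposited estimate and bars for its 95% interval. Red genes were higher and blue genes lower in the knockout, and the grey band marks fold changes below the limit of 0.58 on which the table was filtered.

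The mouse annotation holds 76 genes that fit the names, so 41 of them are not in the authors' deposited table. Across all genes an estimated 21.8% of those tested were listed, but how many of the 76 were tested is unknown. That share, and the 45.1% of all listed genes that were lower, stand beside every count by role below. Among those not listed were Col1a1 and Col1a2, the chains of type I collagen, Col4a1 and Col4a2, the chains of the collagen IV found in every basement membrane, and Lamb1, Lamc1, Nid1, Nid2 and Agrn. Such a gene may have failed a limit or gone untested, and was not read as unchanged. The members closest to the fold-change limit of 0.58 were Plod2 at -0.59 and P3h2 at -0.63 in the authors' deposited table, and the largest adjusted p of a member was 0.0236, for Col15a1. For 22 of the 35 genes the whole 95% interval lay beyond the 0.58 limit.

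**Figure D2:**
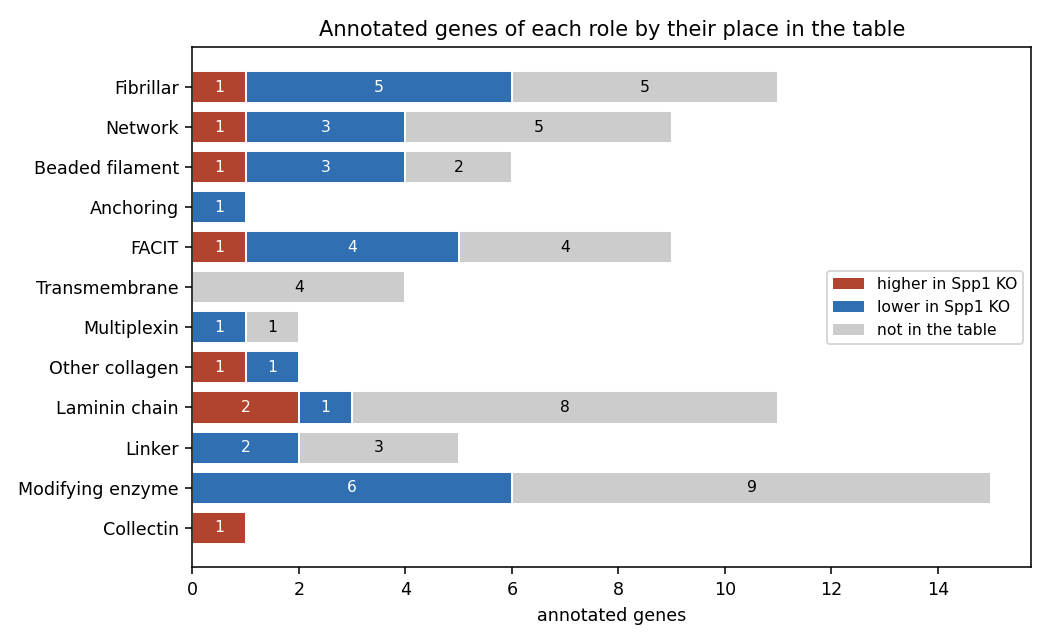
Number of annotated genes of each role (x axis), split by whether they were higher in the knockout, lower in the knockout or not in the table. All 6 listed modifying enzymes and both listed linkers were lower, 2 of 3 listed laminin chains were higher, and none of the 4 transmembrane collagens was in the table.

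Among fibrillar collagens, 1 chain was higher and 5 were lower of 11 annotated, with a median log2 fold change of -1.17. The exception was Col3a1, the single chain of type III collagen, which forms thin fibrils in pliable tissue and is the most abundant of the 35 genes per kilobase. Its implied mean was 56076 in knockout and 31255 in wild-type cultures. The authors' deposited table gave it a log2 fold change of 0.84 (standard error 0.14, adjusted p = 2.23e-08). All 3 chains of type V collagen, which sits in the core of fibrils and sets their diameter, fell. Col5a2 had implied means of 11669 in knockout and 26117 in wild-type cultures, Col5a1 of 8987 and 14672, and Col5a3 of 965 and 2456 in the same order. Their log2 fold changes in the authors' deposited table were -1.16 (standard error 0.09, adjusted p = 1.53e-36), -0.71 (0.09, 2.59e-13) and -1.35 (0.24, 1.84e-07). The 95% intervals of Col5a1 (-0.89 to -0.53) and Col5a2 (-1.34 to -0.99) did not overlap, although both chains enter the same trimer.

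Summed over the listed fibrillar chains, the implied means came to 79947 in knockout and 80350 in wild-type cultures, a ratio of 0.995. Without Col3a1 the sums were 23871 and 49095, a ratio of 0.486. Per kilobase of exon, the implied level of Col3a1 was 4.70 times that of Col5a2 in knockout and 1.17 times in wild-type cultures. The sums over the listed chains were thus nearly equal between the genotypes, and the share of Col3a1 in them was larger in the knockout. They leave out Col1a1, Col1a2 and the other fibrillar chains not in the table, so they give no total of fibrillar collagen. The sums are not scaled by gene length and carry no error.

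Some members are neighbours in the genome, in coordinates of GRCm38. Col3a1 (chromosome 1, 45311538 to 45349706, plus strand) and Col5a2 (45374321 to 45503282, minus strand) point toward each other with 24614 bases between them, and they changed in opposite directions. Col4a4 and Col4a3 point away from each other with 71 bases between the annotated genes, and both fell. Col6a2 and Col6a1 lie on the minus strand of chromosome 10 with 85161 bases between them, and both fell.

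Promoter windows of RefSeq (build GRCm38.p6), from 250 bases before to 50 after the annotated start, were matched to 21 of the 35 members. Each window was searched on both strands for the box of letters CCAAT, for the TATA box TATAAA, for the GC box GGGCGG and for a Sox factor core of AACAAT. The windows of Col3a1 and Col5a1 are shown because these fibrillar genes changed in opposite directions, and that of Col4a4 because it holds the whole gap shared with Col4a3. Capitals mark motif letters in Col3a1 (chr1:45311288-45311587, plus strand) and Col5a1 (chr2:27886175-27886474, plus strand), and in Col4a4 (chr1:82586800-82587099, minus strand) the bases between that gene and Col4a3.
Col3a1: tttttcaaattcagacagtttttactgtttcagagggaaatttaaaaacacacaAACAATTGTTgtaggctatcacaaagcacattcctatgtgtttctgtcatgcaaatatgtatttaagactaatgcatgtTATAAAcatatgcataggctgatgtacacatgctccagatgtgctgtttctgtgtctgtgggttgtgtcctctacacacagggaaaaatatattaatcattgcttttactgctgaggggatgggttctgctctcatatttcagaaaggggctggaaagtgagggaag
Col5a1: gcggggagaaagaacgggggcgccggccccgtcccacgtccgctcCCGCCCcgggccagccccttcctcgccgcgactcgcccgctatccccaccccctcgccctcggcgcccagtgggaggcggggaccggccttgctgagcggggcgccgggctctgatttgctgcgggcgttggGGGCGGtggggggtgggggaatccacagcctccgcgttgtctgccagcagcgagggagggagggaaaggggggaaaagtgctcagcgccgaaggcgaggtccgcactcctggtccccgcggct
Col4a4: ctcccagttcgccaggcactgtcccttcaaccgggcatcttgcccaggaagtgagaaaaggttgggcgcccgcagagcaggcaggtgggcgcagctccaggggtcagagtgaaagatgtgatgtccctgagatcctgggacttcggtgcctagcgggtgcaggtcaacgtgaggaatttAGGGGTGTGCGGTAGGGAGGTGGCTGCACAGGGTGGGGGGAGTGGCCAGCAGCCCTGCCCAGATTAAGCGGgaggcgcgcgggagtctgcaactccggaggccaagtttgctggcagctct
The Col3a1 window holds 0 CpG sites, 37.7% G and C, 1 TATAAA and 2 overlapping AACAAT on opposite strands. The first base of that TATAAA is at -117 from the annotated start. The search took a match at any place in the window, so a match alone does not show a working box. The Col5a1 window holds 34 CpG sites, 75.0% G and C and 2 GGGCGG, and the Col4a4 window 14 CpG sites and none of the motifs searched. TATAAA stood in 1 of the 21 member windows, Col3a1 alone, in 10.1% of the 2740 windows of listed genes and in 14.2% of all 27025 windows. GGGCGG stood in 2 of 3 windows of higher members and in 11 of 18 of lower members (61.9% of member windows together), near the 55.2% of listed genes, and in 35.9% of all windows. CCAAT stood in 0 of 3 windows of higher and 5 of 18 of lower members, against 36.5% of listed genes and 38.0% of all windows. AACAAT stood in 1 of the 21 member windows, in 6.79% of listed genes and in 10.9% of all windows. With so few windows of higher members these shares are a description and show no difference between the directions.

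Col2a1, the chain of the type II collagen of cartilage and the vitreous body, had implied means of 183 in knockout and 1159 in wild-type cultures. Its log2 fold change in the authors' deposited table was -2.66 (standard error 0.15, adjusted p = 1.93e-66). Col11a1, a chain of type XI collagen, which copolymerises with type II, had implied means of 2068 in knockout and 4692 in wild-type cultures. The authors' deposited table gave it -1.18 (standard error 0.19, adjusted p = 3.44e-09). Col9a1, a chain of the FACIT collagen that coats type II fibrils, had implied means of 1.53 in knockout and 37.4 in wild-type cultures, and at -4.61 (standard error 0.91, adjusted p = 4.28e-06) it had the lowest fold change of the 35 genes in the authors' deposited table. At so low a knockout level the size of that value rests on few counts, and its 95% interval ran from -6.39 to -2.83. The partner chains Col9a2 and Col9a3, Col11a2 of type XI, and Col10a1, a network collagen of cartilage, were not in the table. Beside these chains, 5 of 8 markers of Müller glia and retinal progenitors were listed and all 5 were lower, with summed implied means of 1588 in knockout and 4131 in wild-type cultures. Most of both sums came from Six3 (654 in knockout, 1945 in wild type) and Lhx2 (897 and 2020). Rax, Six6 and Rlbp1 had low counts. The part of these markers in the result was not tested. In such bulk RNA fewer cells of a type and less RNA per cell cannot be told apart.

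FACIT collagens held the widest range of any role, with 1 higher and 4 lower of 9 annotated. Col14a1, a fibril-associated collagen of tendon and skin, had implied means of 1513 in knockout and 251 in wild-type cultures. Its log2 fold change of 2.59 in the authors' deposited table (standard error 0.21, adjusted p = 8.45e-33) was the second highest of the 35 genes. Its close relatives Col12a1 and Col20a1 fell. Col12a1 had implied means of 7051 in knockout and 12090 in wild-type cultures, and a log2 fold change of -0.78 (standard error 0.08, adjusted p = 2.14e-19) in the authors' deposited table. Col20a1 had implied means of 27.9 in knockout and 350 in wild-type cultures, and a log2 fold change of -3.65 (standard error 0.90, adjusted p = 3.78e-04) in the authors' deposited table. Per kilobase of exon, the implied level of Col14a1 was 0.466 times that of Col12a1 in knockout and 0.0452 times in wild-type cultures. Col16a1, a FACIT collagen of several connective tissues, had implied means of 1367 in knockout and 2794 in wild-type cultures, and stood at -1.03 (standard error 0.22, adjusted p = 3.61e-05) in the authors' deposited table.

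**Figure D3:**
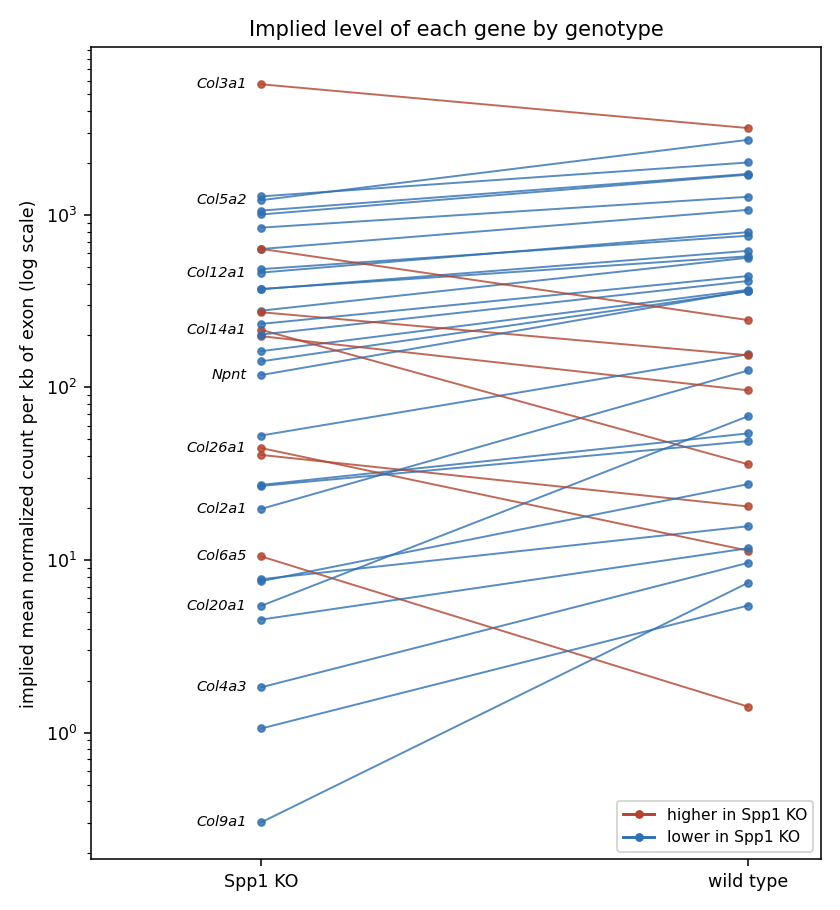
Implied mean normalized count per kilobase of exon (y axis, log scale) of each of the 35 genes in knockout (left) and wild-type (right) cultures, joined by a line, red where higher and blue where lower in the knockout. Col3a1 is the top line in both genotypes, and Col14a1 and Col6a5 cross many of the falling genes.

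Among network collagens, 1 was higher and 3 were lower of 9 annotated. The chains of type VIII collagen, a short-chain collagen of the corneal endothelial membrane and vessel walls, moved apart. Col8a2 had implied means of 890 in knockout and 432 in wild-type cultures, and Col8a1 of 7876 in knockout and 13400 in wild-type cultures. In the authors' deposited table Col8a2 rose by 1.04 (standard error 0.23, adjusted p = 3.38e-05) and Col8a1 fell by 0.77 (standard error 0.08, adjusted p = 6.28e-19). Per kilobase, Col8a2 stood at 0.197 of the implied level of Col8a1 in knockout and 0.0562 in wild-type cultures. Col4a3 and Col4a4, which with Col4a5 form the collagen IV network of mature kidney and some eye basement membranes, both fell. Col4a3 had implied means of 18.2 in knockout and 95.9 in wild-type cultures and Col4a4 of 82.1 and 167 in the same order. Their log2 fold changes in the authors' deposited table were -2.40 (standard error 0.53, adjusted p = 5.88e-05) and -1.02 (0.27, 9.93e-04), with overlapping intervals.

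Type VI collagen, which forms beaded microfilaments beside basement membranes, had 3 falling chains and 1 rising one of 6 annotated. Col6a1, Col6a2 and Col6a3, the chains of the common trimer, had implied means of 5605, 3086 and 3332 in knockout. In wild-type cultures these were 8813, 5154 and 6753. The 3 chains summed to 12023 in knockout and 20721 in wild-type cultures. Their log2 fold changes were -0.65, -0.74 and -1.02 (standard errors 0.12, 0.15 and 0.16, adjusted p = 1.58e-06, 1.21e-05 and 1.58e-09) in the authors' deposited table, and the interval of Col6a3 overlapped that of Col6a1. Col6a5, a chain that can take the place of Col6a3, had implied means of 98.7 in knockout and 13.3 in wild-type cultures. Its log2 fold change of 2.89 (standard error 0.65, adjusted p = 7.55e-05) was the highest of the 35 genes in the authors' deposited table. Per kilobase its implied level was 0.0377 of that of Col6a3 in knockout and 0.00250 in wild-type cultures, so it remained far the rarer chain in both genotypes. Col7a1, the collagen of the anchoring fibrils that tie epithelia to the matrix below, had implied means of 542 in knockout and 1602 in wild-type cultures, with a log2 fold change of -1.56 (standard error 0.21, adjusted p = 7.75e-12) in the authors' deposited table.

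None of the 4 transmembrane collagens (Col13a1, Col17a1, Col23a1 and Col25a1) was in the authors' deposited table. Of the multiplexins, collagens that carry glycosaminoglycan chains near basement membranes, Col15a1 was listed and Col18a1 was not. Col15a1 had implied means of 173 in knockout and 344 in wild-type cultures and stood at -0.99 (standard error 0.36, adjusted p = 0.0236) in the authors' deposited table. Col26a1 had implied means of 364 in knockout and 92.6 in wild-type cultures and rose by 1.97 (standard error 0.23, adjusted p = 1.78e-16) in the authors' deposited table. It is the one member on the chromosome of Spp1, 32.3 Mb away. Col28a1, a collagen known from peripheral nerve, had implied means of 5.18 in knockout and 26.7 in wild-type cultures, with a log2 fold change of -2.37 (standard error 0.74, adjusted p = 0.00668) in the authors' deposited table. Beside it, 9 of 10 Schwann cell and oligodendrocyte lineage markers were listed and all 9 were lower, with summed implied means of 1503 in knockout and 10058 in wild-type cultures, and their part in the result was not tested.

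Of 11 annotated laminin chains 3 were listed (27.3%, beside an estimated 21.8% of all genes tested), 2 higher and 1 lower. Lama1, the alpha chain of the laminin that lines the inner retina, had implied means of 393 in knockout and 198 in wild-type cultures. Lama4, the alpha chain of laminins of vessels and peripheral nerve, had implied means of 3294 in knockout and 1854 in wild-type cultures. In the authors' deposited table they rose by 0.99 (standard error 0.18, adjusted p = 2.83e-07) and 0.83 (0.16, 1.23e-06). Lamc3, a gamma chain found in retina and brain, had implied means of 27.5 in knockout and 71.3 in wild-type cultures and fell by 1.37 (standard error 0.41, adjusted p = 0.00423) in the authors' deposited table. Its interval overlapped neither alpha chain's, but listed genes of opposite direction cannot overlap, since each interval excludes 0. The other 8 chains, among them every beta chain, were not in the table.

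Both listed linkers fell. Hspg2, which encodes perlecan, the large heparan sulfate proteoglycan of basement membranes, had implied means of 9073 in knockout and 15295 in wild-type cultures. Its log2 fold change in the authors' deposited table was -0.75 (standard error 0.13, adjusted p = 1.92e-07). Npnt encodes nephronectin, a basement membrane ligand of integrin alpha8 beta1, and had implied means of 593 in knockout and 1827 in wild-type cultures. It fell by 1.62 (standard error 0.12, adjusted p = 1.54e-39) in the authors' deposited table. Itga8, the alpha chain of that integrin, was higher, with implied means of 961 in knockout and 510 in wild-type cultures and a log2 fold change of 0.91 (standard error 0.18) in the authors' deposited table.

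Collagen-modifying enzymes showed 0 higher and 6 lower of 15 annotated, within a narrow range apart from 1 gene. Plod2, the lysyl hydroxylase of collagen telopeptides, had implied means of 4548 in knockout and 6862 in wild-type cultures. The prolyl 3-hydroxylase P3h1, which works in a complex with Crtap, had implied means of 898 in knockout and 1701 in wild-type cultures, and P3h2, which acts on collagen IV, of 1385 and 2141 in the same order. P3h4, a partner protein of lysyl hydroxylase, had implied means of 1056 in knockout and 1649 in wild-type cultures. Plod2, P3h2, P3h4 and P3h1 had log2 fold changes of -0.59, -0.63, -0.64 and -0.92 (standard errors 0.10, 0.11, 0.14 and 0.14, adjusted p = 5.8e-08, 4.25e-07, 6.12e-05 and 3.2e-09) in the authors' deposited table. Pcolce2, an enhancer of the proteinase that trims procollagen, had implied means of 34.9 in knockout and 127 in wild-type cultures, with a log2 fold change of -1.87 (standard error 0.39, adjusted p = 1.77e-05) in the authors' deposited table. The galactosyltransferase gene Colgalt2 stood at -0.86 (standard error 0.23) in the authors' deposited table. The 3 prolyl 4-hydroxylase alpha chains (P4ha1, P4ha2 and P4ha3), Plod1, Plod3, Colgalt1, Crtap, P3h3 and Pcolce were not in the table.

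Colec12 encodes a scavenger receptor with a collagen-like stem and a lectin head, and is no matrix protein. Its implied means were 5543 in knockout and 2143 in wild-type cultures, and it rose by 1.37 (standard error 0.11, adjusted p = 7.66e-33) in the authors' deposited table.

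**Figure D4:**
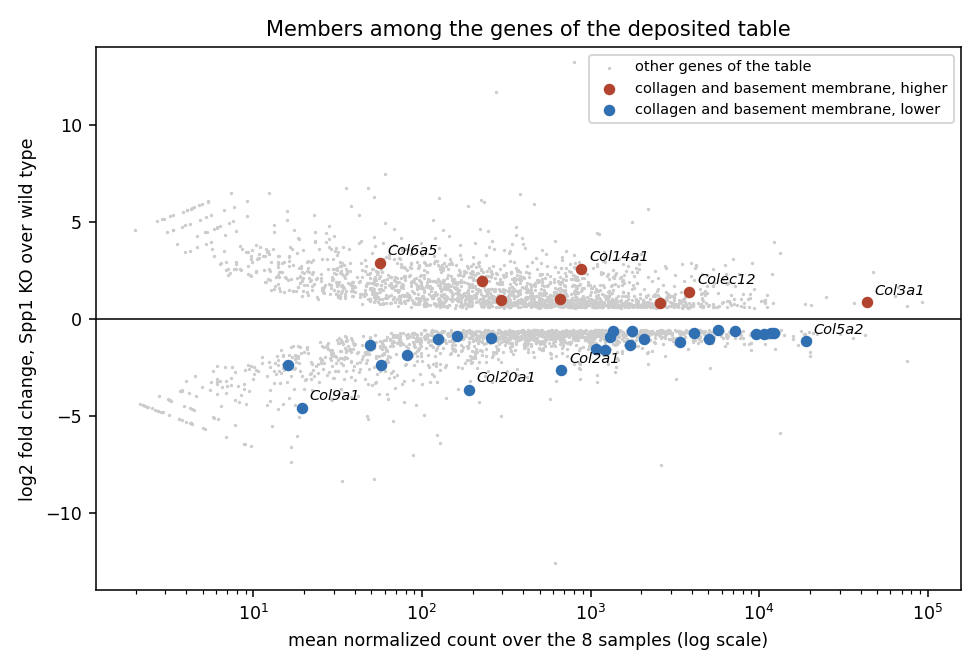
Log2 fold change of knockout over wild type (y axis) against mean normalized count over the 8 samples (x axis, log scale) for the genes of the table, with the 35 members in red (higher) and blue (lower). The blue members form a band just below the limit at high counts, cut from above by that limit, with Col3a1 opposite them at the far right.

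Genes that act on collagen after translation, basement membrane assembly genes and matrix receptors were counted in lists set beside the members. Of 13 genes of collagen folding and export, 2 were listed (15.4%, beside an estimated 21.8% of all genes tested), both lower. Serpinh1, the collagen chaperone Hsp47, stood at -0.78 (standard error 0.15), and Fkbp10, a prolyl isomerase of collagen, at -0.90 (0.11) in the authors' deposited table. Of 21 genes of procollagen processing, crosslinking and basement membrane assembly, 12 were listed (57.1%), in a list chosen with earlier results known. Each of the 12 was lower, their median log2 fold change was -1.05, whereas 45.1% of all listed genes were lower. Those with the smallest adjusted p were Tinagl1, a basement membrane protein, at -2.92 (standard error 0.19), Pxdn, the peroxidase that crosslinks collagen IV, at -1.23 (0.11), and Adamts14, a procollagen N-proteinase, at -1.56 (0.15) in the authors' deposited table. Of 17 matrix receptors, 5 were listed (29.4%), 4 higher and 1 lower, where 54.9% of all listed genes were higher. Itgb4, the integrin beta chain of hemidesmosomes, stood at 2.44 (standard error 0.27), the collagen-binding inhibitory receptor gene Lair1 at 1.60 (0.19) and the laminin-binding integrin gene Itga7 at -1.24 (0.16) in the authors' deposited table.

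Markers of several cell types were listed too, and their lists moved in different directions. Of 13 fibroblast and leptomeningeal markers, 9 were listed, 8 higher and 1 lower, with summed implied means of 27494 in knockout and 8669 in wild-type cultures. Dcn, the proteoglycan decorin, had implied means of 15920 in knockout and 2177 in wild-type cultures. That is the direction of Col3a1 and Col14a1 and the opposite of most members. Twist1, a mesenchymal transcription factor, stood at -1.22 (standard error 0.21) in the authors' deposited table. Of 8 mural cell markers 3 were listed, all lower, with summed implied means of 47272 in knockout and 88167 in wild-type cultures, most of it from Acta2 and Tagln, which activated fibroblasts and cultured glia also express. Of 10 endothelial markers 4 were listed, 2 higher and 2 lower. All 9 macrophage and microglia markers were listed and higher, with summed implied means of 69544 in knockout and 13318 in wild-type cultures. Of 10 astrocyte markers 5 were listed, 4 higher and 1 lower, and Gfap, the astrocyte filament gene, had implied means of 91923 in knockout and 58315 in wild-type cultures. Beside every marker list, here and above, an estimated 21.8% of all genes tested were listed, and 45.1% of listed genes were lower. The part of these markers in the changes of the matrix genes was not tested.

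**Figure D5:**
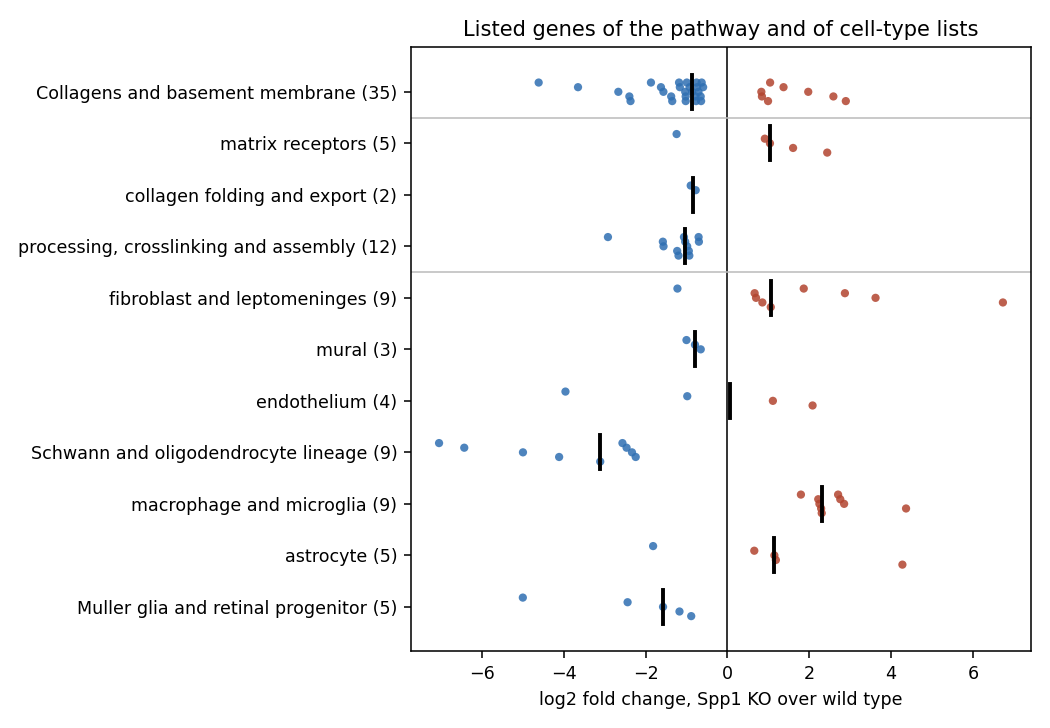
Log2 fold change of knockout over wild type (x axis) of each listed gene in the members (top row), in 3 pathway lists and in 7 cell-type lists, with the number listed in parentheses and a black line at the median. All 12 listed processing, crosslinking and assembly genes lie left of 0, as do all 9 Schwann and oligodendrocyte markers, and all 9 macrophage markers lie right of 0.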

How the data were processed

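RNA-seq of cultured astrocytes from 4 Spp1 knockout and 4 wild-type samples was analysed from the authors' deposited table of 1 comparison. Its columns, per the file headers, hold the authors' mean normalized count (a signal averaged over all samples), log2 fold change, standard error and Wald statistic (a score), followed by p-value and adjusted p-value. CASAVA 1.8, STAR 2.7, DESeq2 1.30.1 and the build GRCm38 appear, with no step assigned, in the submitters' processing notes. The counting step was not given in the sources used here for this work. The largest listed adjusted p was 0.0499 and the smallest absolute log2 fold change 0.58, the marks of a filter on both. About 16600 genes had been tested, estimated from adjusted over raw p in the 20 genes with the smallest p above 0.

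With 0 columns of values per sample, no count model, no test across samples and no test of any list was run, and adjusted p-values are the authors'. Implied means used 4 samples in each group and assume that the deposited fold change equals the ratio of the group means. Exonic lengths, positions and the 76 annotated names came from GENCODE release M21 (GRCm38), which matched 3586 listed genes. Python 3.11.15 and pandas 2.3.3 were used, and the arithmetic was tested on simulated data. The alternatives were a limit of 1 on the absolute log2 fold change, a mean normalized count of at least 100, an adjusted p of at most 0.001 and a weighted mean in place of the median.

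The members, roles, lists and alternatives were chosen with earlier results of these data known. By rule, full values went to up to 4 members of each role group with the smallest adjusted p and to those at the extremes. The network, beaded-filament and anchoring collagens counted as 1 group. Pathway genes were named for the 3 smallest adjusted p in each direction of their list. Col5a3, Col20a1, P3h4, Col8a2, Col4a4 and Col6a2 fall outside the rule for members and were added to complete their families. Kdm5d and the other sex-linked genes, the marker genes named singly and the genes of the neighbour and promoter comparisons were chosen after their values were seen.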

Additional observations from a re-analysis of the deposited data

How the results depend on the processing

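With a limit of 1 on the absolute log2 fold change, 5 members were higher and 15 lower, with a median of -1.26, against 8, 27 and -0.86 as deposited; fewer genes pass that limit by construction. A mean weighted by the inverse squared standard error was -0.57 over all members. At a mean normalized count of at least 100, 7 were higher and 22 lower, and at an adjusted p of at most 0.001, 8 and 23. Over these settings the members were 74.2% to 77.1% lower and all listed genes 38.8% to 45.4% lower. The laminin median of 0.83 became -1.37 at the fold limit of 1, where Lamc3 alone is left. Of 36 values recomputed, 25 moved by less than the median standard error of their genes or, for counts, by no more than the limit set for them. Another 10 moved by more and kept their sign, and 1 reversed. Several of the 25 could not move, because the setting removed no gene of the group or the group held 1 gene.

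No paired analysis was possible because the deposited table holds no values per sample. For the same reason leaving out replicates, other size factors and other filters on low counts were not run, and the depth and the spread between samples are unknown. The implied means carry no error of their own, and for the 6 members with a mean normalized count under 100 the fold change rests on few counts.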
